A study of Mus musculus with 4 samples.

Results

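mmu-miR-22 and mmu-miR-22*, the pair of mature arms cut from the mouse mir-22 hairpin (miR-22 and miR-22* from here on), were read out in small RNA libraries of synovial fibroblasts, connective tissue cells of the joint lining, grown in culture. They were taken from the tables by name, as the rows called miR-22 once the species prefix and the arm mark were removed. This gave 2 of the 590 miRNA names listed in any library, and both were listed in all 4 libraries and passed the filter on low counts. The pair was chosen by name with its read counts, mismatch classes and star to guide ratio in TghuTNF against WT already known, so its values in that contrast are given as a description, with no test.

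The tested cultures came from TghuTNF mice, which carry a human TNF transgene and develop arthritis, and the control cultures from wild-type (WT) littermates without it. Each genotype had 2 biological replicates, as the series design states, all from mice 8 weeks old on a CBA/J and C57BL/6/J background. Cells were released from the hind joints by enzymes and used at passage 4, when most were CD90.2 positive and few Mac1 positive per the labels' protocols. The promoter that drives the transgene is not given in the sources used here.

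A miRNA hairpin yields a short duplex, of which one strand, the guide, is kept in an Argonaute protein and pairs through its seed (bases 2 to 8) with messenger RNAs that it represses. The other, the star strand, is mostly degraded. miR-22 is the guide of its hairpin and lies in an exon of a non-coding host RNA. It is known to repress the histone deacetylase Hdac4, to promote senescence of human fibroblasts, and to repress CYR61 in human synovial fibroblasts of rheumatoid arthritis.

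The sequences are shown because the arms are read out separately and each must be told apart from other miRNAs. Capitals mark the seed, and both are written 5′ to 3′ from RefSeq (GRCm38.p6). The guide is the 3p arm and the star the 5p arm.
miR-22: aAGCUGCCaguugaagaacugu
miR-22*: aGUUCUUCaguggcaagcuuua
The hairpin they come from is 95 nucleotides long, and here capitals mark the arms, the star first.
Mir22 hairpin: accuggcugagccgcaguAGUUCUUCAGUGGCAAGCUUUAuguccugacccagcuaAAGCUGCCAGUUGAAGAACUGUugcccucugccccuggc
The predicted fold (RNAfold) has a free energy of -41.9 kcal/mol, and 19 base pairs join one arm to the other.

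Mir22 lies on the plus strand of chromosome 11 at 75463716 to 75463810 (GRCm38), inside exon 2 of both annotated transcripts of Mir22hg, the non-coding host, in GENCODE M21. One transcript of the overlapping coding gene Tlcd2 shares this exon, at 75463693 to 75463857. The seed of miR-22 and that of miR-22* were each found in no other of the 1738 mature mouse miRNAs searched. The nearest mature sequence to miR-22 was miR-3966, with 2 mismatches and no gap. It was listed in none of the 4 libraries, and the next nearest had 8 mismatches. For miR-22* the nearest had 8. By this search, neither arm had a near-copy among the listed miRNAs. Whether the authors' mapping included miR-3966 was not checked. Its absence from the libraries therefore cannot show that none of its reads were counted as miR-22.

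The libraries held 27362819 and 22959408 matches for TghuTNF and 16680860 and 26542371 for WT, where a match is a read assigned to a miRNA with at most 2 mismatches. Log2 levels correlated across miRNAs with r = 0.990 between the TghuTNF replicates and 0.995 between the WT replicates, against 0.969 to 0.980 between genotypes. TghuTNF replicate 2 stood apart in mismatches, with 11.7% of classed matches at 2 mismatches, against 8.21% in TghuTNF replicate 1 and 8.64% and 8.73% in WT. The mesenchymal markers miR-143, miR-145, miR-199a and miR-214 were all present and together took 104835 to 111807 counts per 1000000 matches (CPM, unscaled) in TghuTNF and 116809 to 119462 in WT. Most of this was miR-143, so the sum hides the scarcer members. miR-214 was called lower in TghuTNF (log2 fold change -0.93, edgeR adjusted p = 0.037). miR-145 had the opposite sign, at 0.75, and did not pass, nor did miR-143 or either arm of miR-199a. The sign of miR-145 rests on TghuTNF replicate 2. Scaled for depth and composition, it had 82.6 and 190 CPM in TghuTNF and 83.3 and 78.4 CPM in WT.

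miR-22 was among the abundant miRNAs of these cells and stood at about double the level in TghuTNF fibroblasts, while its star arm differed little. The guide had 194923 and 226976 reads in TghuTNF replicates 1 and 2, against 65771 and 121107 in WT replicates 1 and 2. Scaled for depth and composition (TMM-scaled CPM), these were 7061 and 10077 CPM in TghuTNF and 4003 and 4449 CPM in WT. Both TghuTNF libraries lay above both WT libraries, and TghuTNF replicate 2 was the highest of the 4. The means were 8569 ± 2133 CPM in TghuTNF and 4226 ± 315 CPM in WT (SD, n = 2 each), a fitted log2 fold change of 1.02 ± 0.19 (SE), or 2.03-fold. Without TghuTNF replicate 2 the log2 fold change was 0.71, and without TghuTNF replicate 1 it was 1.18, each with a lone TghuTNF library that is assumed to vary like the WT pair.

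miR-22* had 936 and 754 reads in TghuTNF, against 448 and 778 reads in WT. Its TMM-scaled level was 33.9 and 33.5 CPM in TghuTNF and 27.3 and 28.6 CPM in WT. The groups did not overlap, but the gap was small: the means were 33.7 ± 0.30 CPM in TghuTNF and 27.9 ± 0.93 CPM in WT (SD, n = 2 each). The fitted log2 fold change was 0.27 ± 0.23 (SE), or 1.21-fold. The standard error comes from a fit that shares its estimate of the spread over all miRNAs. Exact 95% counting intervals of the unscaled level were 32.1 to 36.5 and 30.5 to 35.3 CPM in TghuTNF and 24.4 to 29.5 and 27.3 to 31.4 CPM in WT, so those of TghuTNF replicate 2 and WT replicate 2 overlap. Intervals cover counting error only, since reads carry no molecular identifiers.

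A separation of both TghuTNF libraries above both WT libraries was found for 30.8% of the 442 miRNAs tested. The log2 fold changes of miR-22 and miR-22* ranked 29th and 143rd of 442 from the top, where the median over all tested miRNAs was 0.0056. In bulk libraries, a change in the make-up of the culture and a change in each cell cannot be told apart.

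**Figure D1:**
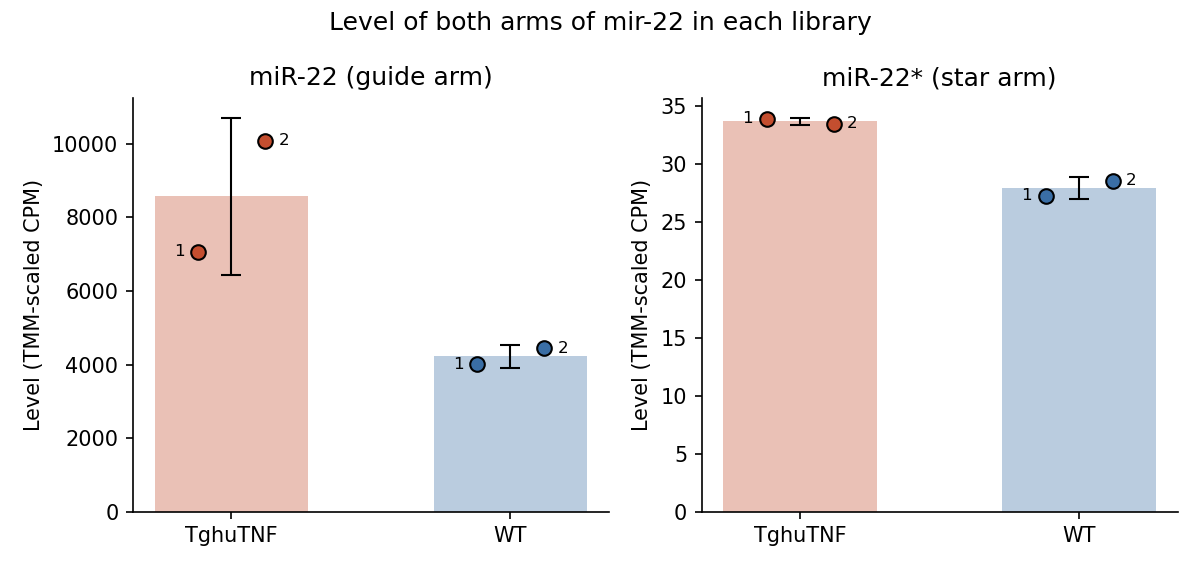
Level of miR-22 (left) and miR-22* (right) in TMM-scaled CPM by genotype; points are libraries with their replicate number, bars are means and error bars SD (n = 2). miR-22 lies at 7061 and 10077 CPM in TghuTNF and at 4003 and 4449 CPM in WT, whereas miR-22* lies within 27.3 to 33.9 CPM in all 4 libraries.

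In rank within a library, miR-22 was 22nd and 21st of the listed miRNAs in TghuTNF, and 29th and 28th in WT. Its share of all matches was 0.712% and 0.989% in TghuTNF, against 0.394% and 0.456% in WT. By mean TMM-scaled level over the 4 libraries it stood between miR-103 and miR-100. In each TghuTNF library it lay above miR-103 (5959 and 7844 CPM), though its lower value fell below the higher one of miR-103. It also lay above both TghuTNF values of miR-100 (6380 and 6006 CPM). In WT it lay below both values of miR-103 (5840 and 6965 CPM) and of miR-100 (5998 and 6794 CPM). The order of miR-22 among its neighbours in level thus differed between the genotypes, which is a description of read counts and not of molecules.

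The neighbours one further step away in level were miR-191, at 7216 ± 69.3 CPM in TghuTNF and 8168 ± 888 CPM in WT, and let-7e, at 5849 ± 1637 CPM in TghuTNF and 6588 ± 1079 CPM in WT (SD, n = 2 each). miR-22* ranked 183rd and 181st in the TghuTNF libraries and 201st in both WT libraries. Around it stood miR-466f-3p, at 23.3 ± 2.78 CPM in TghuTNF and 38.4 ± 3.59 CPM in WT, and miR-433, at 35.6 ± 2.21 CPM in TghuTNF and 23.3 ± 2.01 CPM in WT. The next were miR-148a* (28.3 ± 8.46 CPM in TghuTNF and 33.6 ± 1.54 CPM in WT) and miR-466i (21.5 ± 2.64 CPM in TghuTNF and 37.1 ± 3.43 CPM in WT). In TghuTNF, miR-22* was above miR-466f-3p and miR-466i and below miR-433 in both libraries, and in WT the reverse order held.

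The star to guide ratio was lower in both TghuTNF libraries than in both WT libraries. The same order, for less to more abundant arm, held in 17.0% of the 106 hairpins whose arms could be paired by name and both passed the filter. There were 4.80 star reads per 1000 guide reads in TghuTNF replicate 1 (95% counting interval 4.50 to 5.12) and 3.32 in TghuTNF replicate 2 (3.09 to 3.57). In WT there were 6.81 (6.19 to 7.47) in replicate 1 and 6.42 (5.98 to 6.89) in replicate 2. The intervals of the TghuTNF libraries lay below those of the WT libraries and apart from each other, while the WT intervals overlapped. Put the other way, each star read stood beside 208 and 301 guide reads in TghuTNF, against 147 and 156 in WT. The mean log2 ratio of star to guide was -7.97 ± 0.38 in TghuTNF and -7.24 ± 0.060 in WT (SD, n = 2 each), a difference of -0.73. This ratio is taken within a library, so no scaling between libraries enters it.

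With perfect matches only, the ratios were 4.93 and 3.33 star reads per 1000 guide reads in TghuTNF and 7.27 and 6.51 in WT, so the order of the libraries stayed the same. Without TghuTNF replicate 2 the difference of log2 ratios was -0.46, and without TghuTNF replicate 1 it was -0.99. The guide differed more than the star in each of these comparisons.

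**Figure D2:**
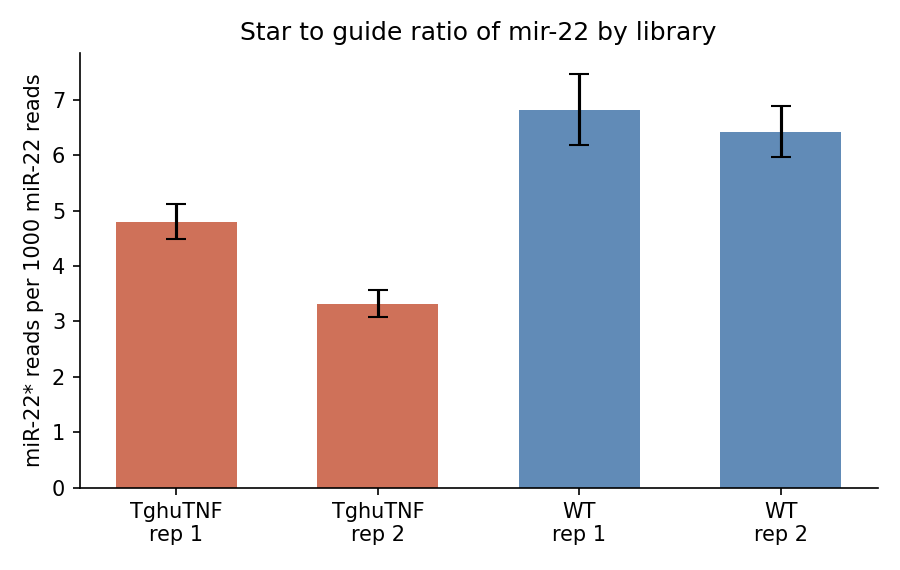
Reads of miR-22* per 1000 reads of miR-22 in each library; error bars are exact 95% binomial intervals, which cover counting error only. Values are 4.80 and 3.32 in the TghuTNF libraries and 6.81 and 6.42 in the WT libraries.

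Arms were paired by name, and both passed the filter for 106 hairpins. Stars whose name carries a locus number, such as let-7c-1*, were left out. In the paired hairpins the less abundant arm had a median of 50.7 reads per 1000 of the more abundant one. mir-22 was the 24th lowest, so its star was scarcer relative to its guide than in most of these hairpins. The hairpins beside it in this order were mir-7a, with 3.75 and 5.58 reads per 1000 in TghuTNF and 2.44 and 4.44 in WT, and mir-744, with 6.83 and 6.08 in TghuTNF and 4.25 and 5.58 in WT. These neighbours did not show the lower TghuTNF ratio of mir-22.

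The genotype difference of the log2 ratio ran from -1.08 to 0.93 over the 106 hairpins with a median of 0.0090, and 51 differences were below 0. That of mir-22 was the fifth lowest. Both TghuTNF libraries lay below both WT libraries in 17.0% of hairpins. Leaving mir-22 aside, the more abundant arm rose by edgeR's test in 2 hairpins, a set chosen after its values were seen. The call of miR-140* ended without TghuTNF replicate 2, where its log2 fold change was 0.52 (edgeR adjusted p = 0.10) against 0.81 with all libraries. mir-140, a cartilage miRNA, kept its ratio within a narrow range, with 46.9 and 53.5 reads of miR-140 per 1000 of miR-140* in TghuTNF and 46.7 and 47.8 in WT. mir-615, which lies in a Hox cluster, had 47.6 and 23.8 reads of its 5p arm per 1000 of its 3p arm in TghuTNF and 90.9 and 36.7 in WT, so its groups overlapped.

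**Figure D3:**
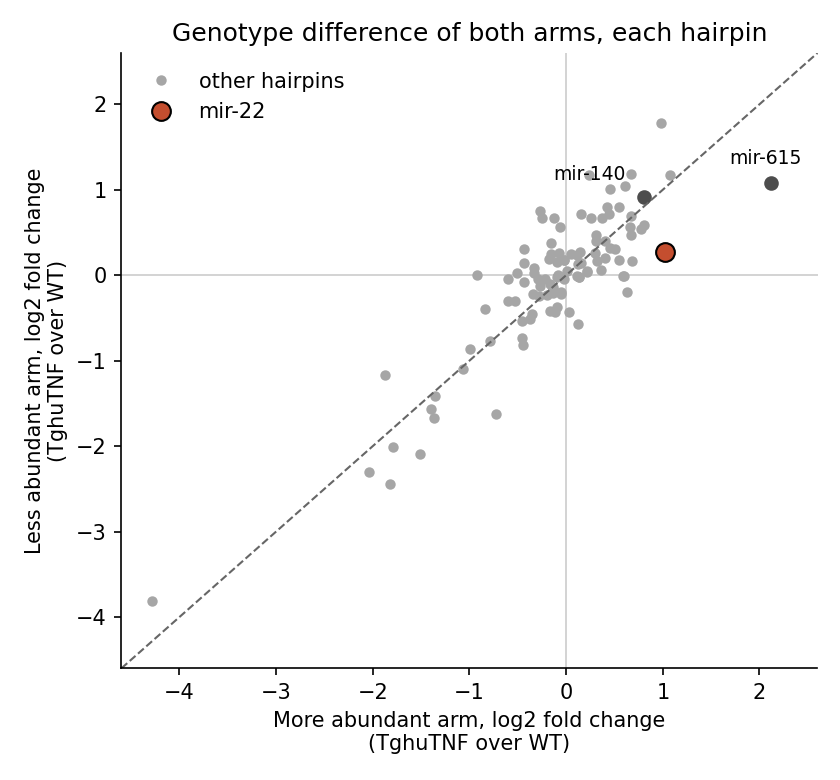
Fitted log2 fold change (TghuTNF over WT) of the more abundant arm (x axis) and the less abundant arm (y axis) of 106 hairpins; the dashed line marks equal change. mir-22 (red), at 1.02 and 0.27, lies below the line, and mir-140, at 0.81 and 0.91, lies near it.

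Most classed reads of both arms were perfect matches, that is, assigned by the authors' mapping without a mismatch. Where the trimmed reads ended is not given. These classes therefore cannot show full-length copies of the sequences printed above. Perfect matches made up 89.5% and 81.6% of classed miR-22 reads in TghuTNF, and 83.9% and 85.7% in WT. For miR-22* they made up 91.9% and 81.8% in TghuTNF and 89.5% and 86.9% in WT. The genotypes overlapped for both arms, and TghuTNF replicate 2 was the lowest library for each. Means were 85.6% ± 5.59 in TghuTNF and 84.8% ± 1.29 in WT for miR-22, and 86.9% ± 7.11 in TghuTNF and 88.2% ± 1.85 in WT for miR-22* (SD, n = 2 each).

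Reads with 2 mismatches formed 3.14% and 6.26% of classed miR-22 reads in TghuTNF and 4.78% and 4.09% in WT. For miR-22* they formed 1.71% (95% counting interval 0.98% to 2.76%) and 6.90% (5.19% to 8.95%) in TghuTNF, and 2.01% (0.92% to 3.78%) and 1.67% (0.89% to 2.84%) in WT. TghuTNF replicate 2 was the highest for both arms, as it was over all matches. Over the 146 tested miRNAs with at least 1000 reads in every library, the median perfect share was 73.2% and 68.1% in the TghuTNF libraries and 73.0% and 72.4% in the WT libraries. miR-22 was above this median in every library, at rank 35 and 39 of 146 in TghuTNF and 48 and 47 in WT.

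The means of miR-22 were higher in TghuTNF in each mismatch class. In unscaled CPM, its perfect matches averaged 7222 in TghuTNF and 3610 in WT, its 1-mismatch reads 861 in TghuTNF and 455 in WT, and its 2-mismatch reads 421 in TghuTNF and 188 in WT. The ratios of TghuTNF to WT were 2.00, 1.89 and 2.25. Without TghuTNF replicate 2, the library that stood apart in mismatches, they were 1.77, 1.15 and 1.19. For miR-22* the perfect matches averaged 29.2 CPM in TghuTNF and 24.8 CPM in WT, a ratio of 1.18. The ratio of its 2-mismatch reads was 2.77, and 1.14 without TghuTNF replicate 2, but those were 16 and 52 reads in TghuTNF and 9 and 13 reads in WT.

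**Figure D4:**
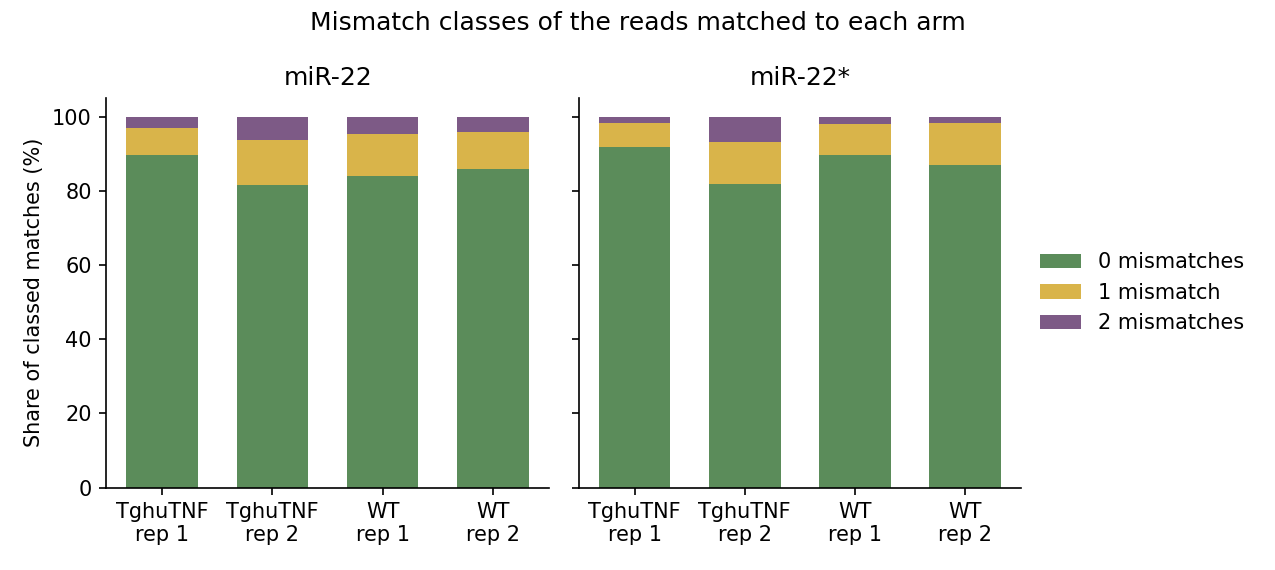
Share of classed matches with 0, 1 and 2 mismatches (stacked, in %) for miR-22 (left) and miR-22* (right) in each library. Perfect matches form 81.6% to 91.9% of each bar, and TghuTNF replicate 2 has the lowest perfect share for both arms.

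The miRNAs whose levels followed miR-22 most closely over the 4 libraries were the arms of mir-140. Likeness was the Euclidean distance of log2 CPM after centring each miRNA on its mean of the 4 libraries. miR-22 lay 0.24 and 0.76 above its mean in TghuTNF replicates 1 and 2, and at -0.58 and -0.42 in WT replicates 1 and 2. miR-140 lay at 0.10 and 0.77 in TghuTNF and at -0.50 and -0.38 in WT, a distance of 0.17. miR-140* followed at 0.21, then miR-411* and miR-496 of the Dlk1-Dio3 cluster at 0.24 each and miR-1947 at 0.24. miR-1947 and miR-496 stood at means of 0.37 and 1.06 CPM and are thinly counted. miR-22* itself was only the 110th nearest of 441.

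For miR-22* the nearest were miR-210, a miRNA induced by hypoxia, at 0.063, miR-532-5p at 0.090, miR-99b* at 0.095, miR-452 at 0.0999 and miR-200c, an epithelial miRNA, at 0.12. miR-22 was the 286th nearest of 441 to its own star. miR-210 stood at 0.13 and 0.15 above its mean in TghuTNF and at -0.21 and -0.066 in WT. These distances rest on 4 libraries that share their genotype contrast, so they describe likeness of values only.

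Summed levels of the markers of other cell types are given beside this, in unscaled CPM. The chondrocyte markers (2 of 2 listed) are these same mir-140 arms, which took 18670 and 25531 CPM (unscaled) in TghuTNF and 12065 and 13400 CPM in WT. The muscle markers (6 of 7 listed) summed to 2074 and 1750 CPM in TghuTNF and 2390 and 3086 CPM in WT, nearly all of it miR-206 and miR-1. Their log2 fold changes, -0.53 and -0.43, did not pass edgeR's test, nor did that of the scarce miR-499, 1.20, which had the opposite sign. The endothelial markers (2 of 2 listed) summed to 69.4 and 65.4 CPM in TghuTNF and 125 and 110 CPM in WT. Blood cell markers (6 of 6 listed) summed to 29.1 and 21.2 CPM in TghuTNF and 15.9 and 6.63 CPM in WT. Of these, miR-223 was called higher in TghuTNF (log2 fold change 2.72, edgeR adjusted p = 0.0026). It had 90 and 54 reads in TghuTNF and only 10 and 8 reads in WT. miR-142-3p and miR-142-5p stood at 1.08 and 1.18 and did not pass. The erythroid miR-144 went the other way, with 0 reads in both TghuTNF libraries and 1 and 2 reads in WT. Epithelial markers (7 of 7) summed to 37.1 and 30.1 CPM in TghuTNF and 66.7 and 72.7 CPM in WT. That difference lay in miR-203, called lower in TghuTNF (log2 fold change -1.43, edgeR adjusted p = 0.0025). By contrast, miR-200b, miR-200c and miR-141 stood at 0.44, 0.30 and 0.46 and did not pass. Neural markers (4 of 4) summed to 68.9 and 78.4 CPM in TghuTNF and 64.5 and 71.5 CPM in WT, so the groups overlapped, with miR-124 at 0 in both WT libraries. The heart muscle miR-208a was listed in none. The part of these markers in the level of miR-22 was not tested.

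The miRNA genes nearest to Mir22 on chromosome 11 with reads in these libraries are Mir132 and Mir212, 290 kb away on the same strand. They are shown because they are neighbours that share a seed with each other and not with either arm of mir-22.
miR-132: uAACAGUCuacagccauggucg
miR-212: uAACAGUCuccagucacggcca
miR-132, induced by the transcription factor CREB, averaged 860 ± 87.4 CPM in TghuTNF and 739 ± 84.6 CPM in WT (SD, n = 2 each). Its log2 fold change was 0.22 ± 0.18 (SE; edgeR adjusted p = 0.46). miR-212 averaged 16.4 ± 4.16 CPM in TghuTNF and 11.8 ± 2.15 CPM in WT, with a log2 fold change of 0.48 ± 0.28 (SE; edgeR adjusted p = 0.28). Neither passed the test. Of the list of 5 names for this locus, the 2 described were listed in the files.

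Of 18 miRNAs linked to cellular senescence, a process that miR-22 also promotes, 1 rose, 1 fell and 16 did not pass, where edgeR called 4.75% of all tested miRNAs higher and 8.6% lower at an adjusted p of 0.05. The median over these 18 was 0.12 (log2 fold change), beside 0.0056 over all tested miRNAs. miR-146a rose to 9207 ± 3755 CPM in TghuTNF, against 1480 ± 42.7 CPM in WT (edgeR adjusted p = 7.8e-05). miR-146b, which has the same seed, fell to 5484 ± 378 CPM in TghuTNF, against 19010 ± 7589 CPM in WT (edgeR adjusted p = 0.00081). Both act on NF-kB signalling. The p53-induced miR-34 members did not pass, with miR-34a at 0.44 ± 0.20 (log2 fold change, SE; edgeR adjusted p = 0.18). The lists were drawn up with earlier results of these data known.

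**Figure D5:**
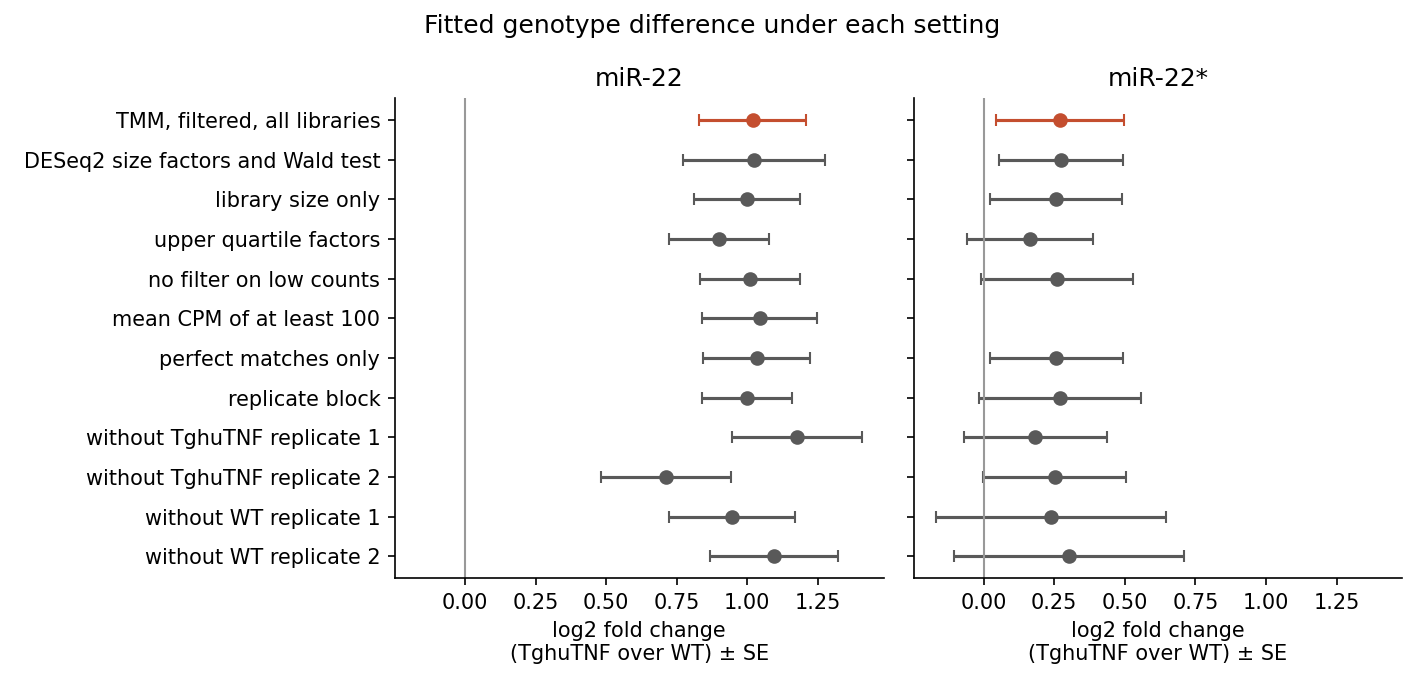
Fitted log2 fold change (TghuTNF over WT) of miR-22 (left) and miR-22* (right) under each scaling, filter and choice of libraries; error bars are SE, and the red point is the fit described in the text. miR-22 ranges from 0.71 to 1.18 and miR-22* from 0.16 to 0.30, all above 0.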

How the data were processed

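The authors deposited 1 table per library, written by mimap version 3d, which tested 707 mouse miRNAs against 37-base reads (hash length 9, up to 2 mismatches allowed), per the file headers. Raw counts of matches per miRNA were deposited, not normalised, with the counts at 0, 1 and 2 mismatches beside them. Not given in the sources used here are the miRBase release, adaptor trimming and how reads that match several miRNAs were counted. miR-133a and miR-133b had nearly the same counts, 33 and 21 each in TghuTNF, 36 each in WT replicate 1, and 56 and 55 in WT replicate 2. Whether the same reads were counted under both names, which would enter them more than once in sums and totals, was not tested.

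Counts were filtered with filterByExpr and scaled with TMM. Genotypes were compared over all 4 libraries by edgeR's quasi-likelihood test (edgeR 4.0.16, R 4.3.3), two-sided, with Benjamini-Hochberg adjustment over 442 miRNAs and a threshold of 0.05. It was also run on simulated data with the same spread set for every miRNA. That setting differs from these libraries, so the run does not give the test's error rate here. P-values set the genotype difference against the spread between 2 cultures of each genotype, an estimate that is shared in part over all miRNAs. Intervals are exact binomial (Clopper-Pearson, scipy 1.17.1). A count of 0 allows up to 3 counts, or 0.110 and 0.131 CPM in TghuTNF and 0.180 and 0.113 CPM in WT.

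The members and lists were chosen with earlier results of these data known. Besides the members, the text names list members (called ones by smallest p, otherwise the most abundant), neighbours in level and in arm ratio, and the 5 miRNAs nearest in pattern to each arm. miR-34a was chosen after its values were seen. A further list is not reported here. The files give old arm names, so miR-22 was matched to miR-22-3p and miR-22* to miR-22-5p by the known renaming. Folding used RNAfold 2.7.2. Alternatives were DESeq2 1.42.0, other scalings and filters, perfect matches, a replicate block and leaving out each library.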

Additional observations from a re-analysis of the deposited data

How the results depend on the processing

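miR-22 and miR-22* kept a positive log2 fold change under every alternative run, and the star to guide ratio stayed lower in TghuTNF. Leaving out 1 library gave 0.71 to 1.18 for miR-22, 0.18 to 0.30 for miR-22* and -0.99 to -0.46 for the log2 ratio. Upper quartile factors gave 0.16 for miR-22*, and moved the median of all miRNAs to -0.10. Relative to that median, miR-22 stood at 1.00 and miR-22* at 0.27, against 1.01 and 0.27 with TMM. A minimum mean CPM of 100 removed miR-22*. The genotype difference of the perfect share turned sign when a library was left out, ranging from -3.22 to 4.69 percentage points for miR-22 and from -6.37 to 3.68 for miR-22*, with -3.22 (miR-22) without TghuTNF replicate 1, -0.18 (miR-22) without WT replicate 1 and 3.68 (miR-22*) without TghuTNF replicate 2. The cause was not tested. Over all miRNAs, 59 calls became 93 with no filter and 14 at a mean CPM of at least 100, where fewer miRNAs were tested and 57.1% of calls were higher, against 35.6%. Leaving out 1 library gave 49 to 153 calls, with 153 without TghuTNF replicate 1. Of the miRNAs in the 2 lists, 2 were called, and 2 to 3 when a library was left out. The calls of miR-140 and miR-140* ended without TghuTNF replicate 2, at log2 fold changes of 0.51 and 0.52. That of miR-140 also ended with upper quartile factors (edgeR adjusted p = 0.055). The call of miR-223 ended without WT replicate 2 (log2 fold change 2.21). That of miR-126-3p ended without WT replicate 1 (-0.67) and without WT replicate 2 (-0.91).

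Replicate numbers are shared between the genotypes, but same-numbered libraries did not deviate together (r = -0.088). Deviations were taken from each genotype's own mean, so both pairs give this same r by construction and are not separate checks. With a replicate block the fit gave 87 calls, and log2 fold changes of 1.00 for miR-22 and 0.27 for miR-22*. The star arm's 448 to 936 reads limit the precision of its ratio.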
